A study of Mus musculus with 6 samples.

Results

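A set of 8 gene rows of very abundant or long-studied RNAs was followed in 6 libraries of mouse satellite cells, the stem cells of adult skeletal muscle. The 8 rows were Rn7s1, Rn7s2, Rn7sk, Rmrp, Rpph1, Malat1, Neat1 and Lars2, picked by name out of the 35976 gene rows quantified. They were chosen with results of these libraries already known, so their levels and differences are given as descriptions without a test. Of these, 7 are noncoding RNAs. The remaining one, Lars2, is a protein-coding gene for the mitochondrial leucyl-tRNA synthetase, so the collective name of structural noncoding RNAs does not cover it.

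The libraries were 3 of NF-YAcKO and 3 of NF-YAfl/fl satellite cells, from mice all carrying floxed alleles of NF-YA, through which the factor NF-Y contacts CCAAT sequences. NF-YAcKO mice also carried a tamoxifen-inducible Cre driven from Pax7, a gene of the satellite cell lineage, and the controls had no Cre. The labels give mice of 5 to 7 weeks and tamoxifen at 20 mg/ml for both genotypes, and the study's methods describe depletion of cells bearing CD31, CD45, CD11b or Sca1, followed by culture in growth medium. The study describes loss of NF-YA in a part of the satellite cells only, and every library is a bulk sample, in which fewer cells of a type and less RNA per cell cannot be told apart.

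Several facts about the libraries bear on all results. The library totals ran from 26936230 to 41118984 expected counts. The transcript entry for the deleted Nfya allele took 22.3% to 34.2% of the Nfya counts in NF-YAcKO and 0 in NF-YAfl/fl, so the deposited transcripts carry the deletion in the libraries labelled NF-YAcKO. Total Nfya, which includes exons outside the deletion, was 27.0 to 28.5 CPM in NF-YAcKO and 23.4 to 36.9 in NF-YAfl/fl. CPM here are counts scaled to the library total after TMM normalization. Summed over 8 markers of differentiated muscle, the libraries held 618 to 1390 CPM in NF-YAcKO and 42964 to 51850 in NF-YAfl/fl. The 6 satellite cell and myoblast markers summed to 1194 to 1333 against 1809 to 2983 CPM, but did not share a direction. Des was at 295 to 374 CPM in NF-YAcKO and 1218 to 1528 in NF-YAfl/fl. Myod1 overlapped, at 509 to 627 against 295 to 1146 CPM. Pax7, the defining marker, was higher, at 145.5 to 201.4 CPM in NF-YAcKO and 73.5 to 105 in NF-YAfl/fl. The 8 macrophage markers summed to 139 to 276 CPM in NF-YAcKO and 5.19 to 12 in NF-YAfl/fl. Xist was at 836 to 852 CPM in NF-YAcKO and at most 0.475 in NF-YAfl/fl, and the Y-linked Ddx3y was at most 0.0957 CPM in NF-YAcKO and 80.9 to 88.6 in NF-YAfl/fl, whereas the study's methods name male mice for the tamoxifen treatment. Xist and Ddx3y thus separate the genotypes fully. A difference by genotype cannot be told apart here from one by the sex that these genes mark. This holds for every gene, Malat1 and Neat1 included.

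The RNAs fall into 4 classes by function. Rn7s1 and Rn7s2 encode 7SL RNA, the scaffold of the signal recognition particle (SRP), which brings ribosomes making secreted and membrane proteins to the endoplasmic reticulum. Rn7sk encodes 7SK RNA, which holds the elongation kinase P-TEFb (Cdk9 with a cyclin T) inactive together with Hexim, Larp7 and Mepce. Rpph1 and Rmrp are the RNA subunits of RNase P, which trims the 5′ end of precursor tRNAs, and of the related RNase MRP, which acts in ribosomal RNA processing. These short RNAs are made by RNA polymerase III. Malat1 and Neat1 are nuclear long noncoding RNAs made by RNA polymerase II. Malat1 collects in nuclear speckles beside splicing factors, and the long form of Neat1 is the core on which paraspeckles assemble.

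The sequences of 7SK, Rmrp and Rpph1 are shown, since they bear on whether a read could fit several genes. They are given 5′ to 3′ in DNA letters, from GENCODE transcripts on GRCm38, the build named as mm10 by the submitters. The transcripts of both 7SL copies were identical at all 300 bases, and their sequence is not shown. For 7SK, capitals mark GATC, the bases of the motif to which Hexim binds, which occurs 3 times in the first 300 of 331 bases. GATC reads the same on both strands, and as a yardstick 48% of mouse promoter windows of 300 bases hold it at least once and 3.35% at least 3 times. For Rmrp, of 271 bases, and Rpph1, shown to base 300 of 319, capitals mark the longest run that both share, which was 9 bases long.
Rn7sk: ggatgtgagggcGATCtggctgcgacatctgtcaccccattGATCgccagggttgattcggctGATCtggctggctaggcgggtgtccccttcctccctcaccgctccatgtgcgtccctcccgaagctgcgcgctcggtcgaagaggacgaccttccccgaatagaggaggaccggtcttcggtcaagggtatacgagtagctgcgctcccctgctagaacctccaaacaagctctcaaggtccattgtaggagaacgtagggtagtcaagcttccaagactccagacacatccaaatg
Rmrp: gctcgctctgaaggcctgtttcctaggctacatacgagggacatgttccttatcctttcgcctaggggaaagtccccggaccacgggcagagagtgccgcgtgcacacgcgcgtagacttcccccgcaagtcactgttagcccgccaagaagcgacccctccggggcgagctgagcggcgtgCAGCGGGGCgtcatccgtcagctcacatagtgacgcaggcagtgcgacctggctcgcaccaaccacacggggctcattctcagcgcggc
Rpph1: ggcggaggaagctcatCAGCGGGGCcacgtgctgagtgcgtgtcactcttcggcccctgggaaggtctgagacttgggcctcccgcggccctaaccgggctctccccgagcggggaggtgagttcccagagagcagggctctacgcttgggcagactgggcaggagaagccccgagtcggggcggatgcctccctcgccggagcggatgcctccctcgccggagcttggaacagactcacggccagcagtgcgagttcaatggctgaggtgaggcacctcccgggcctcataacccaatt

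The annotation places the 8 rows on 5 chromosomes. Rn7s1 lies at chr12:69159295-69159593 on the plus strand and Rn7s2 at chr12:69361183-69361481 on the minus strand. Rn7sk lies at chr9:78175302-78175633, Rmrp at chr4:43492785-43493059 and Rpph1 at chr14:50807447-50807771, all on the minus strand. Malat1 (chr19:5795690-5802672) and Neat1 (chr19:5824708-5845480) are neighbours on the minus strand, 22035 bases apart. Lars2 spans chr9:123366927-123462675 on the plus strand. These are RefSeq positions on GRCm38.p6.

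For several of these RNAs, windows of 75 bases, the length of a read, occurred in other genes as well. The genes compared are those of GENCODE, whereas the deposited transcripts of Malat1, Neat1 and Lars2 carry RefSeq identifiers. A gene named here therefore need not have a deposited row. Reads were paired, so a shared window alone does not say how a pair of reads was assigned. Every 75-base window of 7SL occurred in at least one other annotated gene, first of all in the other copy. The deposited expected counts of Rn7s1 and Rn7s2 were equal in all 6 libraries, so the 8 rows hold 7 distinct measurements and the copies are described as one. In Rn7sk, 65.0% of windows occurred in other GENCODE genes, mainly the 7SK-related Gm24447 and Gm26315. In Rpph1, 64.9% of windows lay also in Ccnb1ip1, which overlaps it on the same strand, but Ccnb1ip1 received at most 1 count in any library against 32576 to 119470 for Rpph1. Rmrp shared no window in sense and 25.4% in antisense with Ccdc107, which held 315 to 611 counts against 33933 to 94060 for Rmrp, and whether the counting used the strand is not given in the sources used here. Malat1 and Neat1 shared under 1% of their windows in sense (0.854% and 0.783%), and Lars2 shared none. In antisense, 5.49% of the Malat1 windows occurred in 52 other genes, to which the same doubt about strand applies.

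The 8 rows took 6.14% to 7.41% of all expected counts of a library. Their place among all genes depended on the unit. By mean percent of counts, Lars2 ranked 2, each 7SL row 3, Rn7sk 6, Malat1 9, Rpph1 21, Neat1 22 and Rmrp 37 of 35976. Each 7SL row holds only its part of the 7SL counts, so its rank understates 7SL as 1 RNA. Both 7SL rows together took 1.21% to 3.98% of a library, and Lars2 took 0.300% to 2.66%. By deposited TPM, an abundance divided by effective transcript length and scaled to the same sum in each library, the order was 7SL at rank 1, Rn7sk at 3, Rmrp at 6, Rpph1 at 7, Lars2 at 16, Malat1 at 80 and Neat1 at 464. The 5 short rows held 2.36% to 5.53% of the counts but 23.6% to 40.0% of the TPM, and the 7SL rows alone held 13.1% to 30.0% of it.

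**Figure D1:**
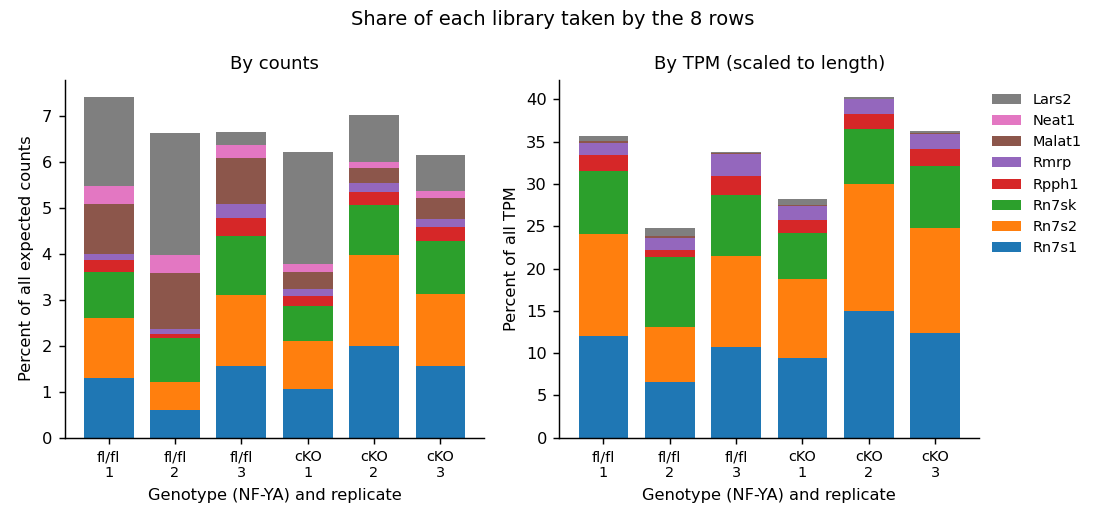
Stacked bars give the share of each library taken by the 8 rows, in percent of all expected counts (left) and in percent of all TPM (right), for the 3 NF-YAfl/fl (fl/fl) and 3 NF-YAcKO (cKO) libraries. The 5 short rows make up 2.36% to 5.53% of a library on the left and 23.6% to 40.0% on the right.

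The gap lies in the length scaling. The annotated 7SL length of 299 bases entered the TPM as an effective length of only 124 to 140 bases, since the fragments behind the libraries averaged 161 to 178 bases by the difference between length and effective length of long transcripts. The share of TPM held by the short RNAs also sets how much is left for all other genes, so the TPM of an unrelated gene moves with it from library to library. On TPM, neighbours in the order were not cleanly apart. Rmrp exceeded Rpph1 in 3 of the 6 libraries, with a ratio from 0.787 to 1.53. Each 7SL row, which holds only its part of the 7SL counts, was below 7SK in NF-YAfl/fl replicate 2 (65660 against 82092 TPM). Both 7SL rows together were above 7SK in all 6 libraries, with 1.27 (NF-YAfl/fl replicate 2) to 3.70 (NF-YAcKO replicate 2) times its counts. Lars2 was above Malat1 in 5 libraries and below it in NF-YAfl/fl replicate 3, at 782 against 1437 TPM.

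Of the 8 rows, 2 passed the call rule used across all genes (FDR, the Benjamini-Hochberg adjusted p of edgeR, under 0.01, with a log2 difference past 1 or -1), both lower in NF-YAcKO, and 6 did not. Over all 17348 genes tested, 12.3% passed in either direction, 4.65% higher and 7.67% lower. No overlap between the genotypes was seen for the same 2 rows, Malat1 and Neat1, with all NF-YAcKO libraries below, as they were for 26.2% of all genes tested. In either direction 55.3% of genes had no overlap. Because these rows were chosen with this comparison known, nothing is read from those counts. The 8 rows had a median of -0.13 on the log2 scale, and all genes tested a median of -0.02.

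**Figure D2:**
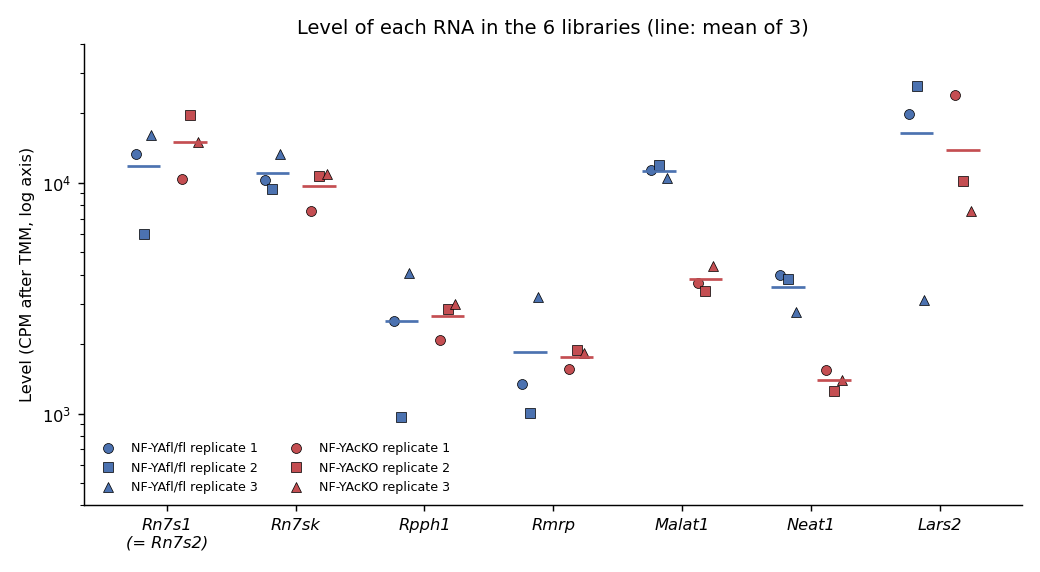
Points give the level of each RNA in CPM after TMM scaling on a log axis, for NF-YAfl/fl (blue) and NF-YAcKO (red), with a symbol for each replicate number and a line at the mean of 3 libraries. Malat1 and Neat1 are the RNAs whose genotypes do not overlap, and Lars2 has the widest spread, from 3118 to 26380 CPM.

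Malat1 was lower in all NF-YAcKO libraries than in any control. It measured 3673, 3415 and 4357 CPM in the NF-YAcKO libraries and 11325, 11996 and 10498 CPM in the NF-YAfl/fl libraries. The lowest control library was 2.41 times the highest NF-YAcKO library, and the libraries of each genotype lay close together. The means were 3815 ± 487 and 11273 ± 751 CPM (SD, n = 3 each), that is 33.8% of the control mean, and the fitted log2 fold change was -1.56 (standard error 0.15). In deposited TPM, on which the short RNAs weigh, the means were 599 ± 110 and 1898 ± 483. The files hold a single Malat1 transcript of 6982 bases, so the row gives no view of its processed forms.

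In CPM, Malat1 was among the steadier transcripts between control libraries. In deposited TPM the same libraries lay further apart, from 1437 to 2400. The coefficient of variation of its CPM over the NF-YAfl/fl libraries was 6.66%. That was at the 10.2 percentile of all genes tested, which include genes of low count. Over NF-YAcKO it was 12.8%, at the 64.5 percentile, so Malat1 was not among the steadier transcripts there. The difference kept its direction and passed the call rule in all 16 alternative settings, with log2 fold changes from -1.70 to -1.51. These settings refit the same libraries, known when the row was chosen, and are no independent evidence for the difference. Over the 6 libraries, the gene whose centred log2 CPM profile lay closest to that of Malat1 was Akap13, a scaffold of protein kinase A, with a root mean square difference of 0.0825 among 9449 genes. Akap13 had 108, 105 and 118 CPM in NF-YAcKO and 327, 317 and 282 CPM in NF-YAfl/fl. Napb, of the SNAP family of membrane fusion proteins, came next (0.0970).

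Neat1 was lower in NF-YAcKO as well. Its levels were 1544, 1256 and 1394 CPM in NF-YAcKO and 4002, 3849 and 2757 CPM in NF-YAfl/fl. The genotypes did not overlap, and the closest pair of libraries was 1.79-fold apart. The means were 1398 ± 144 and 3536 ± 679 CPM (SD, n = 3 each), 39.5% of the control mean, and the log2 fold change was -1.34 (standard error 0.18). The direction was kept in all 16 alternatives (-1.49 to -1.25), which are refits of the same libraries as for Malat1. With 1 library left out, the call rule was passed without NF-YAfl/fl replicate 2 (-1.28) or replicate 3 (-1.49). It was not passed without NF-YAcKO replicate 1 (-1.45), NF-YAcKO replicate 2 (-1.31), NF-YAcKO replicate 3 (-1.37) or NF-YAfl/fl replicate 1 (-1.25). The profile nearest to that of Neat1 outside the 8 rows was Ankrd44 (0.0804), an ankyrin-repeat subunit of protein phosphatase 6, followed by Gm39443 (0.10). Malat1 and Neat1 were 0.209 apart, and the ratio of their counts ran from 2.38 to 3.13 in NF-YAcKO and from 2.83 to 3.81 in NF-YAfl/fl.

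Neat1 has a short transcript of 3185 bases and a long one of 20771 bases, which share their 5′ end, so reads from the shared stretch were divided between them by the authors' software. In both genotypes most of the TPM was assigned to the long form. The long form was at 80.3, 55.2 and 69.4 TPM in NF-YAcKO and at 215, 247 and 115 TPM in NF-YAfl/fl, without overlap. The short form was at 31.2, 24.7 and 32.7 TPM in NF-YAcKO, inside the range of 10.8, 50.6 and 70.9 TPM of NF-YAfl/fl. The short form made up 28.0% to 32.0% of the gene's TPM in NF-YAcKO, a narrow range, and 4.77%, 17% and 38.2% in NF-YAfl/fl. The share of the forms therefore overlapped between genotypes, and the controls differed among themselves by more than the genotypes did.

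**Figure D3:**
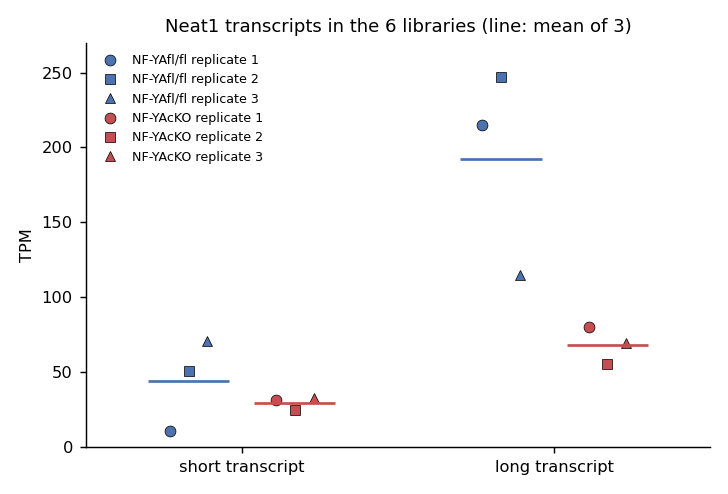
Points give the TPM assigned to the short (3185 bases) and the long (20771 bases) Neat1 transcript in each library, with NF-YAfl/fl in blue, NF-YAcKO in red and a line at the mean of 3. The long form is lower in all NF-YAcKO libraries (55.2 to 80.3 TPM) than in any control (115 to 247 TPM), and the short form overlaps.

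The lower Malat1 and Neat1 went along with other differences between the same libraries. All 8 differentiated muscle markers were called lower in NF-YAcKO and all 8 macrophage markers higher, and 2 of the 6 satellite cell and myoblast markers were lower. The 4 fibro-adipogenic markers summed to 170 to 205 CPM in NF-YAcKO and 37.3 to 261 in NF-YAfl/fl, with none called by edgeR. The 4 endothelial markers summed to 11.9 to 17.6 against 4.11 to 7.52 CPM (1 higher) and the 4 Schwann cell markers to 15.0 to 20.2 against 6.19 to 8.65 CPM (3 higher). The 13 mitochondrially encoded mRNAs took 1.59% to 1.87% of NF-YAcKO libraries and 2.31% to 2.53% of controls. Xist and Ddx3y also split the libraries by genotype, so sex and genotype cannot be told apart. The part of the other differences in the Malat1 and Neat1 levels was not tested.

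The genes beside the pair on chromosome 19 did not share a single direction. They were looked up after the values of Malat1 and Neat1 were known and are given without a test. The nearest gene on the Neat1 side, Frmd8, was at 65.7 ± 3.44 and 50.8 ± 7.10 CPM (log2 fold change 0.37). Ehbp1l1, further out beyond Malat1, was at 170 ± 7.55 and 435 ± 46.9 CPM (-1.36). Over the 13 tested genes within 100 kb of either RNA, fold changes ran from -2.0 on the log2 scale for Kcnk7, a potassium channel gene near 1 CPM in NF-YAcKO, to 0.96 for Pola2, a subunit of DNA polymerase alpha.

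The promoter of Malat1 is shown because NF-Y binds the bases CCAAT. The window of 300 bases spans the transcript start, chr19:5802623-5802922 on the minus strand of GRCm38.p6 in RefSeq. CCAAT was searched on both strands (CCAAT or ATTGG) and was not in this window, nor in the corresponding window of Lars2, whereas 37.4% of 32851 mouse promoter windows of the same length held it. The absence of these letters from 300 bases says nothing about binding of the factor elsewhere.
Malat1 promoter: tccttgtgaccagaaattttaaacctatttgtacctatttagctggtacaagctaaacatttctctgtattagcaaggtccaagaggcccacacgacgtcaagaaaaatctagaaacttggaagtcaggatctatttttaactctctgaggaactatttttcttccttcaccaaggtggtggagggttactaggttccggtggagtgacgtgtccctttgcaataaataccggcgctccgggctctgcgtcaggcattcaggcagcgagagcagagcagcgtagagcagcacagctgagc

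7SL RNA was the most abundant row by TPM and did not separate the genotypes. Each copy was given 10435, 19723 and 15095 CPM in NF-YAcKO and 13406, 6000 and 16069 CPM in NF-YAfl/fl. The lowest library was a control, NF-YAfl/fl replicate 2, and the highest a NF-YAcKO library, and the ranges overlapped widely. The means were 15085 ± 4644 and 11825 ± 5218 CPM (SD, n = 3 each), and the log2 fold change was 0.35 (standard error 0.40). Without NF-YAfl/fl replicate 2 the value was 0.02, without NF-YAcKO replicate 2 it was 0.08, and without NF-YAfl/fl replicate 3 it was 0.63. The nearest profiles were those of the snoRNA host gene Zfas1 (0.258) and of Chchd1, a mitochondrial ribosomal protein gene (0.284).

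The proteins that bind 7SL showed small differences. All 10 genes for SRP proteins and the SRP receptor were tested, and by edgeR none was called. At an unadjusted p under 0.05, 4 were higher and 0 lower, and DESeq2 called none either. The share of all genes past this p, or past the FDR limit alone, is not given. Such counts are descriptions only, here and for the lists below. Of the 10, 8 had fold changes above 0, and the median was 0.14 on the log2 scale. Srp72, an RNA-binding subunit with the highest CPM of the list, a value not corrected for length, had 144 ± 3.34 CPM in NF-YAcKO and 113 ± 4.53 in NF-YAfl/fl (log2 fold change 0.35, edgeR FDR = 0.014). Srp19, which assembles the particle, had the largest difference, at 31.9 ± 0.299 against 21.9 ± 4.77 CPM (0.54, edgeR FDR = 0.039). Srp54c, one of 3 copies of the gene for the GTPase that binds signal peptides, was at 121 ± 4.55 and 109 ± 18.4 CPM (0.14), and its reads may be split with Srp54a and Srp54b. Srprb, of the receptor, was at 80.5 ± 2.24 and 62.9 ± 5.44 CPM (0.35, edgeR FDR = 0.0254).

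7SK had the smallest range of the short RNAs over all 6 libraries, although within NF-YAcKO it varied more (coefficient of variation 19.4%) than Rmrp (10.1%). It measured 7561, 10660 and 10966 CPM in NF-YAcKO and 10330, 9434 and 13313 CPM in NF-YAfl/fl, a 1.76-fold range over all 6 libraries. The genotypes overlapped. The means were 9729 ± 1883 and 11026 ± 2031 CPM (SD, n = 3 each), and the log2 fold change was -0.18 (standard error 0.21), ranging from -0.30 to -0.03 over the alternatives. Smarcd3, a subunit of the BAF chromatin remodelling complex, and Crip2, a LIM-domain protein gene, had the nearest profiles, at 0.103 each.

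Of the 7 tested genes of the 7SK particle and P-TEFb, none was called by edgeR or DESeq2. At an unadjusted p under 0.05, 2 were higher and 3 lower. Larp7, which protects the 3′ end of 7SK, had 55.4 ± 4.10 CPM in NF-YAcKO and 29.3 ± 4.60 in NF-YAfl/fl. Its log2 fold change of 0.92 passed the FDR limit (edgeR FDR = 0.00284) and stayed under the fold limit. Hexim2, an inhibitor of P-TEFb, was at 2.12 ± 0.487 and 3.94 ± 1.21 CPM (-0.89, edgeR FDR = 0.0578), and Cdk9, the kinase itself, at 55.9 ± 3.09 and 42.2 ± 9.13 CPM (0.41, edgeR FDR = 0.0825). The list was split in direction, with 3 genes above 0 and 4 below, and its median was -0.36.

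The RNAs of RNase P and RNase MRP varied mainly among the control libraries. Rpph1 was at 2088, 2846 and 2985 CPM in NF-YAcKO and at 2528, 969 and 4053 CPM in NF-YAfl/fl. Rmrp was at 1555, 1886 and 1830 CPM in NF-YAcKO and at 1348, 1009 and 3191 CPM in NF-YAfl/fl. For both, NF-YAfl/fl replicate 2 was the lowest of all 6 libraries and NF-YAfl/fl replicate 3 the highest, with the NF-YAcKO libraries between them. Their coefficients of variation in NF-YAfl/fl were 61.3% for Rpph1 and 63.5% for Rmrp, at the 91.4 and 92.2 percentiles of all genes tested. In NF-YAcKO they were 18.3% and 10.1%, at the 74.1 and 57.4 percentiles.

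The fitted differences were small beside that spread. Rpph1 had means of 2640 ± 483 and 2517 ± 1542 CPM (SD, n = 3 each) and a log2 fold change of 0.07 (standard error 0.46). Rmrp had means of 1757 ± 177 and 1849 ± 1174 CPM (n = 3 each) and a log2 fold change of -0.07 (standard error 0.41). Neither had a stable sign. Without NF-YAfl/fl replicate 2 the values were -0.33 for Rpph1 and -0.38 for Rmrp, and without NF-YAfl/fl replicate 3 they were 0.59 and 0.57. Rpph1 was also below 0 without NF-YAcKO replicate 2 (-0.02) or NF-YAcKO replicate 3 (-0.05), and Rmrp above 0 in both limma fits of TPM (0.02 each) and with the replicate number as a block (0.11). NF-YAfl/fl replicate 3 also had the shortest implied fragments (161 bases, against 168 to 178 in the other libraries). The part of fragment length in these levels was not tested.

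The nearest profiles to Rmrp and Rpph1 were picked out of 9449 genes. That such a gene lay closer than 1 named RNA says nothing about how Rmrp and Rpph1 relate. The nearest profiles to Rmrp were Slc7a5, a large amino acid transporter subunit, at 0.111, and the stress-responsive cytokine gene Gdf15, at 0.115. Slc7a5 had 483, 505 and 443 CPM in NF-YAcKO and 368, 283 and 927 CPM in NF-YAfl/fl, with the same lowest and highest library as Rmrp. For Rpph1 the nearest were 2410006H16Rik (0.209) and Extl1 (0.224), and the distance between Rmrp and Rpph1 was 0.305. Rpph1 lay 0.254 from 7SL.

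The genes for the protein subunits of both enzymes leaned towards NF-YAcKO, by less than the fold limit. All 11 tested genes had fold changes above 0, against 49.0% of all genes tested, with a median of 0.52 on the log2 scale. None reached the fold limit in edgeR or DESeq2, while 4 passed the FDR limit, and at an unadjusted p under 0.05, 7 were higher and 0 lower. Pop1, the largest subunit, was at 80.1 ± 3.15 CPM in NF-YAcKO and 43.9 ± 6.93 in NF-YAfl/fl (log2 fold change 0.87, edgeR FDR = 0.00283). Rpp30 was at 26.1 ± 1.32 and 13.5 ± 0.577 CPM (0.95, edgeR FDR = 0.0011), and Rpp40 at 8.23 ± 0.579 and 4.4 ± 0.152 CPM (0.90, edgeR FDR = 0.00431). Pop4 was at 63.0 ± 1.96 and 43.2 ± 5.26 CPM (0.55, edgeR FDR = 0.00888). The NF-YAcKO libraries lay above all control libraries for 8 of the 11 genes, as they did for 29.1% of all genes tested.

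**Figure D4:**
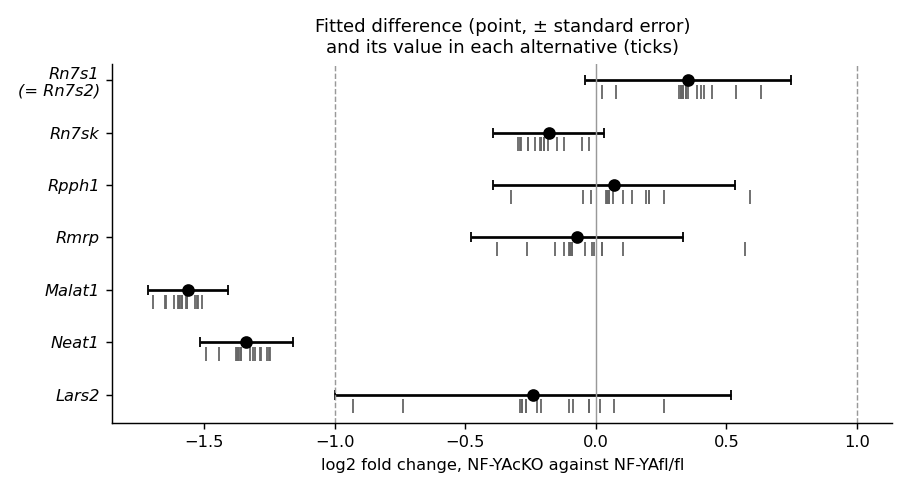
Points give the fitted log2 fold change of NF-YAcKO against NF-YAfl/fl with its standard error, and ticks below them the value under each alternative setting, for the 7 distinct measurements. Dashed lines mark the fold limits of 1 and -1. Malat1 and Neat1 lie beyond -1 in every setting, and the ticks of Rmrp, Rpph1 and Lars2 fall on both sides of 0.

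RNA polymerase III and its factors make the short RNAs. Of 33 tested genes, 1 was called higher and 0 lower, 8 passed the FDR limit, and the median log2 fold change was 0.25. At an unadjusted p under 0.05, 16 were higher and 3 lower, and DESeq2 called 1 higher and 0 lower. The called gene was Polr3g, a polymerase III subunit of proliferating and stem cells, at 26.4 ± 2.93 CPM in NF-YAcKO and 9.99 ± 1.40 in NF-YAfl/fl (log2 fold change 1.40, edgeR FDR = 0.00101). Gtf3a, the factor of the 5S genes, was at 37.5 ± 1.83 and 19.6 ± 0.814 CPM (0.94, edgeR FDR = 0.000865). Ssb, the La protein that binds the ends of new polymerase III transcripts, was at 195 ± 14.3 and 119 ± 8.75 CPM (0.72, edgeR FDR = 0.00237). Gtf3c1, of the factor that binds tRNA promoters, was at 184 ± 6.32 and 190 ± 13.2 CPM (-0.04). The RNAs themselves had fold changes from -0.18 to 0.35.

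None of the protein partners of Malat1 and Neat1 was called lower. Among 14 paraspeckle genes none was called in either direction by edgeR or DESeq2, 12 were above 0 and the median was 0.51. At an unadjusted p under 0.05, 9 were higher and 0 lower. Sfpq, which is essential to paraspeckles, was at 423 ± 16.1 CPM in NF-YAcKO and 268 ± 54.5 in NF-YAfl/fl (log2 fold change 0.66, edgeR FDR = 0.0161). Hnrnpk was at 881 ± 22.6 and 580 ± 35.5 CPM (0.60, edgeR FDR = 0.0039). Dazap1 (0.85, edgeR FDR = 0.00203) and Nudt21, a 3′ end processing factor (0.73, edgeR FDR = 0.00233), had the largest differences of the list.

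Among 12 nuclear speckle genes, 1 was called higher and 0 lower, with a median of 0.35. At an unadjusted p under 0.05, 7 were higher and 1 lower, and DESeq2 called 1 higher and 0 lower. Srsf1, a splicing factor, was at 495 ± 31.2 CPM in NF-YAcKO and 235 ± 46.8 in NF-YAfl/fl (log2 fold change 1.07, edgeR FDR = 0.00269). Srsf7 was at 173 ± 5.33 and 88.8 ± 12.1 CPM (0.96, edgeR FDR = 0.00151). Genes of the speckle core proteins had values on the other side of 0. Srrm2 was at 559 ± 13.4 and 711 ± 148 CPM (-0.35, edgeR FDR = 0.123) and Son at 485 ± 12.9 and 633 ± 98.9 CPM (-0.38, edgeR FDR = 0.0532).

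Lars2 differed more between libraries of one genotype than between genotypes. It measured 24143, 10145 and 7536 CPM in NF-YAcKO and 19982, 26380 and 3118 CPM in NF-YAfl/fl, an 8.46-fold range with both extremes among the controls. The means were 13942 ± 8931 and 16493 ± 12017 CPM (SD, n = 3 each), and the log2 fold change was -0.24 (standard error 0.76). The value was -0.93 without NF-YAcKO replicate 1, -0.74 without NF-YAfl/fl replicate 3 and 0.26 without NF-YAfl/fl replicate 2. Its coefficient of variation was at the 94.9 percentile of all genes tested in NF-YAfl/fl and at the 97.4 percentile in NF-YAcKO.

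The level of Lars2 stood apart from the other genes of its function. Its mean of 4789 TPM was 496 times the median of 9.66 TPM over 18 other mitochondrial aminoacyl-tRNA synthetases and 17.8 times the highest of them, Gars (269 TPM). Nearly all of it (99.93% or more of the TPM in every library) was assigned to the 3881-base transcript. Among those 18 genes, 16 had log2 fold changes above 0, with a median of 0.41. At an unadjusted p under 0.05, 10 were higher and 1 lower. Yars2 (log2 fold change 0.66, edgeR FDR = 0.00736), Gars (0.57, edgeR FDR = 0.00552) and Kars (0.60, edgeR FDR = 0.00301) passed the FDR limit and not the fold limit. Over all 7 lists of proteins that bind, make or share a function with these RNAs, 105 genes were tested. By edgeR and by DESeq2, 3 were called higher and 0 lower, while edgeR called 4.65% of all genes higher and 7.67% lower. At an unadjusted p under 0.05, 55 were higher and 8 lower. The share of all genes past that p is not given, and 55.3% of all genes had no overlap between genotypes, so nothing is read from the 55. The median log2 fold change of the 105 genes was 0.33, against -0.02 over all genes tested.

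Over the 6 libraries Lars2 ran in parallel with noncoding rows. With 6 points that share their library, this is a description only. The nearest profile among 9449 genes was LOC108167755, an annotated lncRNA on chromosome 1 (root mean square difference 0.148), and the next was Gm15564, an annotated antisense RNA on chromosome 16 (0.225). LOC108167755 took 0.853%, 0.333% and 0.276% of the NF-YAcKO libraries and 0.641%, 0.877% and 0.132% of the NF-YAfl/fl libraries. Lars2 took 2.44%, 1.02% and 0.781% and 1.94%, 2.66% and 0.300% of the same libraries. The ratio of Lars2 to LOC108167755 therefore stayed between 2.28 and 3.07 while each varied more than 6-fold. LOC101056014, the row named AY036118 in RefSeq, which overlaps the ribosomal RNA pseudogene Rn18s-rs5 by 91 bases on chromosome 17, took 0.780% to 1.43% of the libraries. Its 3 lowest libraries were the 3 in which Lars2 was lowest.

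**Figure D5:**
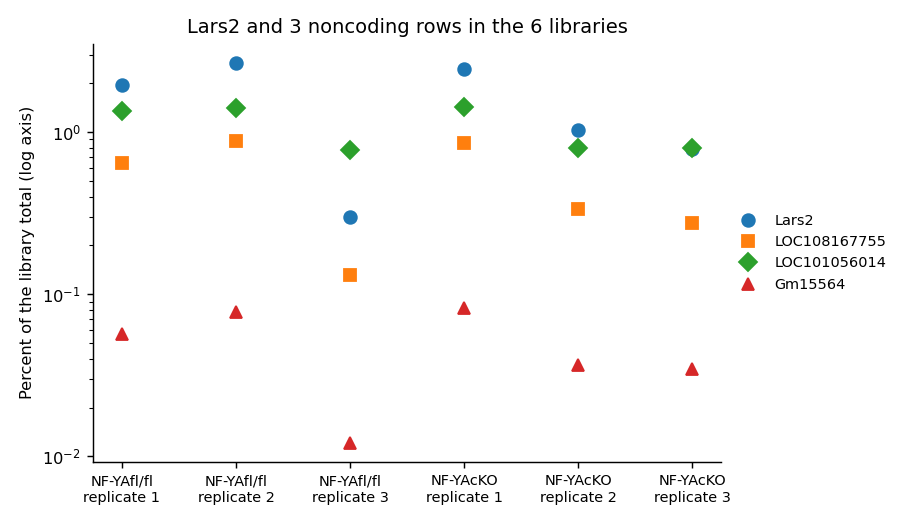
Points give the percent of each library total (log axis) taken by Lars2 and by LOC108167755, LOC101056014 and Gm15564, for the 3 NF-YAfl/fl and then the 3 NF-YAcKO libraries. The 4 rows are lowest in NF-YAfl/fl replicate 3 and Lars2 stays 2.28 to 3.07 times LOC108167755 throughout.

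Sequence that Lars2 shared with other GENCODE transcripts was short and lay outside the coding part. In the 3894-base Lars2 transcript of GENCODE, the coding sequence runs from base 200 to base 2905. Runs of 25 bases shared with Gm15564 and with AA474408 lay between bases 3172 and 3329, in the 3′ untranslated part within exon 21 of 21, at chr9:123461942-123462099. No identical window of 75 bases was shared with any GENCODE gene. Matches with mismatches and sequence outside GENCODE transcripts were not searched. LOC108167755 was not compared by sequence. How the reads counted for Lars2 were spread along the transcript is not given by the deposited values and was not tested.

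Other noncoding RNAs were examined beside the 8 rows. Of 150 other rows named as small nuclear, small nucleolar, vault, Y or microRNA host RNAs, 48 passed the filter on counts. One was called higher and 0 lower by edgeR, 2 were higher and 7 lower at an unadjusted p under 0.05, and DESeq2 called 1 higher and 2 lower. The called row, Mir17hg, is a host transcript of microRNAs and no short RNA, at 14.2 ± 1.01 CPM in NF-YAcKO and 6.94 ± 1.47 in NF-YAfl/fl (log2 fold change 1.03, edgeR FDR = 0.00637). Among the 48, 43 had fold changes below 0 (median -0.82), but this rested on 1 control library. NF-YAfl/fl replicate 3 had the highest level of all 6 libraries for 43 of the 48 rows. Without it, 41 rows passed the filter, 28 were above 0 and 13 below, and the median was 0.31. Rnu1a1, for example, was at 220, 136 and 1026 CPM in the controls. Rnu2-10, a U2 gene copy, was at 289 ± 44.1 and 663 ± 544 CPM (-1.20, edgeR FDR = 0.111), and Rnu1a1, a U1 copy, at 230 ± 54.8 and 461 ± 491 CPM (-1.0, edgeR FDR = 0.3). Snora73a, Snora73b and Rnu3b4 had log2 fold changes of 0.48, -0.45 and -0.43. Without NF-YAfl/fl replicate 3 the values were -0.28 for Rnu2-10, 0.37 for Rnu1a1, 1.22 for Snora73a, 1.17 for Snora73b and 1.04 for Rnu3b4. Reads of such repeated genes may be divided among copies.

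Long noncoding RNAs moved in both directions. Of 20 tested, edgeR called 6 higher and 1 lower, where it called 4.65% of all genes higher and 7.67% lower. The 6 include Xist, which follows the sex marked above. DESeq2 called 6 higher and 3 lower, and at an unadjusted p under 0.05, 8 were higher and 4 lower. H19, an imprinted RNA of embryonic and regenerating muscle, was at 729 ± 298 CPM in NF-YAcKO and 5770 ± 2737 in NF-YAfl/fl (log2 fold change -2.98, edgeR FDR = 0.00314). The snoRNA hosts Gas5 (1.05, edgeR FDR = 0.000694), Snhg1 (1.06, edgeR FDR = 0.00342), Snhg5 (1.04, edgeR FDR = 0.00155) and Snhg8 (1.14, edgeR FDR = 0.0013) rose, as did Dancr (1.07, edgeR FDR = 0.0054), and Xist differed as described above. Kcnq1ot1, the imprinted antisense RNA of the Kcnq1 domain, was at 361 ± 16.1 and 633 ± 125 CPM (-0.81, edgeR FDR = 0.00674), past the FDR limit and short of the fold limit. Tug1 was at 128 ± 1.35 and 130 ± 7.59 CPM (-0.02), and 2900097C17Rik at 407 ± 19.2 and 429 ± 45.3 CPM (-0.07).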

How the data were processed

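Total RNA of satellite cells was sequenced as stranded paired reads of 75 bases. Genotype and replicate number came from the labels, and nothing else ties replicates to litters or days. The authors aligned the reads to the mm10 transcriptome with Bowtie2 and quantified genes and transcripts with RSEM, and deposited expected counts, which divide shared reads among rows. The deposited TPM values are scaled to effective length and keep no depth. The deposited percent of gene TPM per transcript was used for Neat1 and Lars2. Expected counts were rounded, and 17348 genes, each above 10 counts in 2 or more libraries, were tested with edgeR 4.0.16 (TMM, quasi-likelihood, two-sided, Benjamini-Hochberg), on simulated data first. Levels are CPM after TMM, as mean ± SD. Alternatives used limma 3.58.1 and DESeq2 1.42.0. Members, lists and thresholds were chosen with earlier results of these data known. Named genes were all members, called genes of each list, the 2 most abundant and 2 most different genes of each partner list (5 most abundant of each other RNA list) and the 2 nearest profiles of each member. A list for ribosomal RNA rows found 1 row, Rn5s, and 0 tested. No 2 libraries of a genotype agreed within sampling noise. Counting error is small at 26936230 to 41118984 counts a library, and p-values measure the spread between these libraries, since no source used here says whether each came from a single mouse. Leading bases and windows came from GENCODE, promoters from RefSeq, which held 2 of the 8 members. Some called or neighbouring genes and 1 sequence are not reported here.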

Additional observations from a re-analysis of the deposited data

How the results depend on the processing

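Malat1 and Neat1 kept their direction in all 16 alternatives, and Malat1 its call in all 16 and Neat1 in 12. Such refits use the libraries known when the rows were chosen, so they describe the dependence on processing only. Rn7sk kept its sign in 16. The sign of Rmrp changed in 4 alternatives, of Rpph1 in 3 and of Lars2 in 3. Rmrp moved by more than its replicate spread in 1 setting, to 0.57 without NF-YAfl/fl replicate 3. Counts over all genes were 806 higher and 1331 lower. With limma they were 231 higher and 704 lower on log2(TPM + 1), with 0 partner genes higher, and 361 higher on log2(TPM + 0.1), with 1 partner gene higher. At an FDR under 0.05, 2025 genes were lower. Leaving out 1 library gave 177 to 890 genes higher, 523 to 1684 lower and 1 to 7 partner genes higher. The lowest counts were those without NF-YAcKO replicate 2, and the 7 came without NF-YAfl/fl replicate 2. The cause was not tested, except that these fits hold fewer libraries. Deviations of same-numbered libraries from their genotype mean correlated at 0.23, -0.11 and 0.05, and of differently numbered ones at -0.19 to 0.17. Deviations from a mean of 3 libraries are tied to each other, so these values cannot show whether the numbers pair the libraries. With the replicate block, 625 genes were higher and 947 lower, 3 partner genes were higher and 0 lower, and Lars2 was at 0.07 and Rmrp at 0.11. No scaling moved the median of all genes by over 0.1. With 3 libraries a genotype, differences of the size of the spread of Lars2, Rmrp, Rpph1 and 7SL could not be resolved.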
